A study of Mus musculus with 9 samples.

Results

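NAD is the electron carrier of metabolism and the substrate of sirtuins and poly(ADP-ribose) polymerases. Described here are 7 genes around it: Nampt, Nmnat1, Nmnat2 and Nmnat3 of NAD synthesis, the NAD-dependent deacetylase gene Sirt1, and the coactivator genes Ppargc1a and Ppargc1b. They are 7 of the 22071 genes that had a probe set of their own on the array, and all 7 were among the 12646 genes tested. Every probe set whose annotation gave exactly 1 symbol, one of the 7, was used, which made 108 of the 316997 probe sets with 1 symbol. Nmnat2 and Ppargc1a were chosen by their large differences from control in the gene values of these same arrays, so their values are a description and carry no test. The other 5 genes were tested. Nmnat2 lies on mouse chromosome 1, Nmnat1 on 4, Ppargc1a on 5, Nmnat3 on 9, Sirt1 on 10, Nampt on 12 and Ppargc1b on 18.

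The cells were C2C12, an established mouse myoblast line grown in medium with serum. They were transfected with an siRNA against Cugbp1, an siRNA against Mbnl1 or a control siRNA, and total RNA was taken 48 h later and hybridised to exon arrays, 3 arrays in each of 3 groups. Cugbp1 is an older symbol of Celf1. The proteins CELF1 and MBNL1 bind RNA, act on splicing and mRNA decay, and are known for their part in myotonic dystrophy. Whether the 3 replicates of a group were separate cultures is not stated, so a p-value here reflects array-to-array spread alone, and part of that spread may be technical. Whether a change came from fewer cells of a type or from less RNA per cell cannot be told apart in such bulk samples.

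Most cells recycle nicotinamide into NAD. NAMPT makes nicotinamide mononucleotide, the step that usually limits the rate, and the NMNAT enzymes join it to the adenylyl part of ATP; NMNAT1 sits in the nucleus, NMNAT2 in the cytosol and on Golgi membranes, and NMNAT3 in mitochondria. SIRT1 spends NAD to remove acetyl groups from proteins, the coactivator PGC-1α among them. PGC-1α and PGC-1β, the products of Ppargc1a and Ppargc1b, bind nuclear receptors and other factors and raise the transcription of mitochondrial and fatty acid oxidation genes in muscle.

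The targeted genes carried the mark of their siRNA. Celf1 was at 0.364-fold of control after Cugbp1 siRNA and Mbnl1 at 0.393-fold after Mbnl1 siRNA, while Celf1 differed by -0.07 after Mbnl1 siRNA and Mbnl1 by 0.05 after Cugbp1 siRNA on the log2 scale. The first principal component, with 54.2% of the variance of the gene values, put the 6 siRNA arrays at -2.16 to -11.2 and the 3 controls at 14.5 to 16.7. The median intensity was 42.3 to 42.9 on the 6 siRNA arrays and 43.6 to 43.8 on the 3 controls. This offset thus runs along the comparison with control, and directions of change depend on the scaling, as given below. Precision is limited by having 3 arrays a group. Of the muscle markers, Des was at a log2 intensity of 11.87, 11.96 and 11.88 and Myod1 at 9.91, 9.77 and 9.61 after Cugbp1 siRNA, after Mbnl1 siRNA and on controls. Of the 15 listed, 4 were below the filter on all arrays, Pax3 at 4.92, 4.87 and 5.00 among them. Of 13 tested, 4 rose and 1 fell after Cugbp1 siRNA, where 26% of all genes rose and 12.7% fell. After Mbnl1 siRNA 1 rose and 2 fell, where 26.9% of all genes rose and 14.6% fell. Of the markers of other cells, Adipoq of adipocytes, Ptprc of blood cells and Snap25 of neurons averaged between 3.75 and 4.39 in every group, below the filter's log2 value of 7.0. Others had clear signal: after Cugbp1 siRNA, after Mbnl1 siRNA and on controls the neuronal gene Nefl averaged 11.69, 11.73 and 11.57, Syn1 8.96, 9.06 and 8.96, the macrophage gene Cd68 8.26, 8.79 and 8.30, and the adipocyte gene Lpl 7.47, 7.30 and 7.12. Of the marker lists, 9 of 11 adipocyte genes, 6 of 11 neuronal and glial genes and 9 of 12 blood, endothelial and epithelial genes were below the filter on all arrays. These marker levels and counts use all probe sets of a gene. Tests of markers use only the probe sets that passed the filter, so a gene counted here as below it can still be tested. Ptprc was tested on 5 of 53 probe sets, Pecam1 on 3 of 22 and Prdm16 on 4 of 24.

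All values below are log2 intensities. A gene value is the median polish of those probe sets of the gene whose mean over the 9 arrays reached 7.0, an intensity of 128. Differences are between group means, so 1 unit is a 2-fold difference. Tests are limma's moderated test with Benjamini-Hochberg adjustment over the 12646 genes, called at an adjusted p under 0.05. Both comparisons with control used the same 3 control arrays. Since probe sets differ in brightness, levels are compared between groups and never between genes. Among all genes the median change was 0.05 after Cugbp1 siRNA and 0.04 after Mbnl1 siRNA.

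Nmnat2 was the member with the highest change in both comparisons. It read 9.22, 9.25 and 9.23 after Cugbp1 siRNA, 8.89, 9.0 and 8.96 after Mbnl1 siRNA, and 8.0, 8.17 and 7.94 on the controls. The 3 groups did not overlap, and they stood in the order Cugbp1 siRNA, Mbnl1 siRNA, control. NMNAT2 is a short-lived enzyme best known from axons, where its supply keeps the axon alive. The group means were 9.23 ± 0.02, 8.95 ± 0.05 and 8.04 ± 0.12 after Cugbp1 siRNA, after Mbnl1 siRNA and on controls (SD, n = 3 each). The difference from control was 1.2 after Cugbp1 siRNA (2.29-fold), which placed Nmnat2 at rank 5 of the 12646 genes, and 0.91 after Mbnl1 siRNA (1.88-fold), at rank 27. Between the siRNAs it was 0.28, higher after Cugbp1 siRNA.

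The higher signal of Nmnat2 was spread over nearly all of its probe sets. Of 18, 17 were higher after Cugbp1 siRNA than on controls, 12 of them by at least 2-fold, and 16 were higher after Mbnl1 siRNA, 9 of them by at least 2-fold. Of the 17 that passed the filter, 11 and 8 were at least 2-fold higher after Cugbp1 and Mbnl1 siRNA. Among all 168803 probe sets with 1 symbol that passed it, the shares were 0.376% and 0.928%. Since Nmnat2 was chosen for its rise in these arrays, the counts describe it and are no test. The largest difference was in probe set 4880198, with 8.59, 8.69 and 8.53 after Cugbp1 siRNA, 8.53, 8.42 and 8.20 after Mbnl1 siRNA, and 6.75, 6.46 and 7.20 on controls. All 6 siRNA values of that probe set lay above all 3 controls, by 1.80 and 1.58 on average. The probe set 4532837 went the other way, with 10.12, 10.11 and 10.04 after Cugbp1 siRNA, 10.04, 9.78 and 10.08 after Mbnl1 siRNA, and 10.40, 10.23 and 10.55 on controls. Its siRNA values were all below its controls, by 0.30 and 0.43 on average, although it gave the brightest control signal of the gene. Probe set 5049420 hardly differed, at 8.57 ± 0.17, 8.53 ± 0.11 and 8.56 ± 0.11 after Cugbp1 siRNA, after Mbnl1 siRNA and on controls (SD, n = 3 each). Which exon or transcript end these probe sets cover is not in the annotation used here. With the 15 kept probe sets whose control mean reached the filter the gene difference was 1.16 and 0.89 after Cugbp1 and Mbnl1 siRNA. That leaves out only 2 of 17, so it says little about dim signals. Probe sets 4317385 and 4861618, with control means of 9.43, were higher by 0.68 and 0.59 after Cugbp1 siRNA. After Mbnl1 siRNA they were higher by 0.31 and 0.29. By contrast, 5379980, with a control mean of 9.07, was higher by 1.42 and 0.95.

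Nampt, which makes the NMNAT substrate, rose slightly after Cugbp1 siRNA. It read 9.45, 9.65 and 9.68 after Cugbp1 siRNA, 9.48, 9.46 and 9.56 after Mbnl1 siRNA, and 9.41, 9.34 and 9.44 on controls. Every siRNA array lay above every control, in one case by less than 0.01, and the siRNA groups overlapped each other. The rise after Cugbp1 siRNA was 0.20 (SE 0.06, 95% interval 0.05 to 0.34, 1.15-fold; limma, adjusted p = 0.0348). After Mbnl1 siRNA the difference was 0.11 (-0.04 to 0.25), which did not pass (limma, adjusted p = 0.208). Of the 5 tested members 1 passed after Cugbp1 siRNA, where 38.7% of all genes did, and 3 passed after Mbnl1 siRNA, where 41.5% of all genes did, and from 5 genes no difference from these shares is read. Without overlap between siRNA and control arrays were 2 of the 5 after Cugbp1 siRNA (48.8% of all genes) and 4 of the 5 after Mbnl1 siRNA (57.5% of all genes). The Nampt call was not stable. It was lost without Cugbp1 siRNA replicate 2 (0.16) or 3 (0.14), without control replicate 1 (0.18), 2 (0.15) or 3 (0.205) and without Mbnl1 siRNA replicate 2 (0.19). Centring the arrays on the probe sets that passed the filter made it 0.08, with an adjusted p of 0.214 in limma. Of the 15 probe sets, 13 were higher after Cugbp1 siRNA and 11 after Mbnl1 siRNA, and 2 passed as single probe sets with both siRNAs. These were 5356107, higher by 0.55 and 0.53, and 5083890, higher by 0.53 and 0.46 after Cugbp1 and Mbnl1 siRNA (limma over 298889 probe sets, adjusted p between 0.0209 and 0.0353). On this scale 16% of all probe sets passed after Cugbp1 siRNA and 22% after Mbnl1 siRNA.

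Nmnat1, whose product makes NAD in the nucleus, rose after Mbnl1 siRNA. It read 7.94, 7.94 and 7.94 after Cugbp1 siRNA, 8.08, 8.17 and 8.17 after Mbnl1 siRNA, and 7.80, 8.06 and 7.61 on controls. The Mbnl1 siRNA arrays lay above all others, and the Cugbp1 siRNA arrays fell within the range of the controls, which were themselves spread over more than 0.40. The rise after Mbnl1 siRNA was 0.32 (SE 0.09, 95% interval 0.12 to 0.51, 1.24-fold; limma, adjusted p = 0.0184), and after Cugbp1 siRNA the difference was 0.11 (-0.09 to 0.31; limma, adjusted p = 0.330). The rise after Mbnl1 siRNA lost its call without Mbnl1 siRNA replicate 2 (0.30) or 3 (0.30) and without control replicate 3 (0.20). It also lost it when arrays were scaled on the probe sets that passed the filter, at 0.19 and 0.20. Without control replicate 2 the difference after Cugbp1 siRNA became 0.25 and passed (limma, adjusted p = 0.0159). Of the 6 probe sets kept, 5 were higher after Mbnl1 siRNA. Among these 5 was 5412664, with means of 6.95 on controls and 6.84 after Cugbp1 siRNA. It was kept only through its Mbnl1 siRNA arrays, with a mean of 7.32. Only 5102653 passed alone, where 22% of all probe sets did. This probe set read 7.80, 8.01 and 7.81 after Mbnl1 siRNA, against 7.54, 6.83 and 6.69 on controls. The 3 controls of that probe set lay on both sides of the filter, and the 3 Mbnl1 siRNA arrays were all above them.

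Nmnat3, the mitochondrial form, fell after Mbnl1 siRNA. It read 8.11, 7.85 and 7.93 after Cugbp1 siRNA, 7.76, 7.91 and 7.69 after Mbnl1 siRNA, and 8.02, 8.08 and 8.01 on controls. The Mbnl1 siRNA arrays lay below all controls, and the Cugbp1 siRNA arrays lay on both sides of them. The change after Mbnl1 siRNA was -0.25 (SE 0.07, 95% interval -0.41 to -0.09, 0.84-fold; limma, adjusted p = 0.0202), and after Cugbp1 siRNA it was -0.07 (-0.23 to 0.09; limma, adjusted p = 0.465). The call was lost without Mbnl1 siRNA replicate 1 (-0.24) or 3 (-0.21) and without control replicate 2 (-0.23). It was also lost with no filter on weak signals (-0.26). The gene value rests on 4 of 13 probe sets, since 9 were too dim, and over all 13 probe sets 11 were lower after Mbnl1 siRNA and 10 after Cugbp1 siRNA. Markers of other cells moved as well: of 9 tested marker genes of blood, endothelial and epithelial cells, 5 fell and 1 rose after Mbnl1 siRNA and 7 fell after Cugbp1 siRNA, with list medians of -0.24 after Mbnl1 siRNA and -0.25 after Cugbp1 siRNA. Of all genes 14.6% fell after Mbnl1 siRNA and 12.7% after Cugbp1 siRNA. These marker tests use kept probe sets only, from 5 of 53 for Ptprc to 10 of 10 for Cd68. Over all probe sets 9 of the 12 listed genes were below the filter on all arrays. The part of such marker signals in the fall of Nmnat3 was not tested.

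Sirt1, the consumer of NAD in the set, rose after Mbnl1 siRNA. It read 8.65, 8.64 and 8.65 after Cugbp1 siRNA, 8.64, 8.77 and 8.79 after Mbnl1 siRNA, and 8.56, 8.46 and 8.56 on controls. All 6 siRNA arrays lay above the controls, and the siRNA groups overlapped. The rise after Mbnl1 siRNA was 0.21 (SE 0.05, 95% interval 0.10 to 0.32, 1.16-fold; limma, adjusted p = 0.00877), and it passed with each of the 9 arrays left out in turn. After Cugbp1 siRNA the difference of 0.12 (0.01 to 0.23) did not pass (limma, adjusted p = 0.0825). Centred on the probe sets that passed the filter, the rise after Mbnl1 siRNA was 0.09 and did not pass either (limma, adjusted p = 0.138). Every one of the 11 probe sets was higher after Cugbp1 siRNA and 10 were higher after Mbnl1 siRNA.

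One probe set of Sirt1 differed more from control than the rest of the gene. Probe set 4347990 read 7.83, 7.79 and 7.80 after Cugbp1 siRNA, 7.87, 8.10 and 8.31 after Mbnl1 siRNA, and 7.48, 6.82 and 6.60 on controls. All siRNA arrays were above all controls, and 2 of the 3 controls were below the filter. The control mean was 6.96, just under the filter's 6.9965, so the probe set was kept only through its siRNA arrays. Its passing the filter thus depended on the groups where it is high, so its values are described and no test is read from them. It was higher by 0.84 after Cugbp1 siRNA and by 1.13 after Mbnl1 siRNA. Relative to the value of its own gene on the same array, it was higher by 0.92 after Mbnl1 siRNA and by 0.72 after Cugbp1 siRNA. Limma called a departure from the gene for 6.98% of all probe sets after Mbnl1 siRNA and for 3.75% after Cugbp1 siRNA. Among the 55 kept probe sets of the 5 tested genes, 2 were called after Mbnl1 siRNA, 4347990 counted, and 0 after Cugbp1 siRNA. The other was 5549140 of Nmnat1, which stood at 9.27, 9.44 and 9.27 after Mbnl1 siRNA and 9.26, 9.57 and 9.43 on controls, and so lay 0.41 lower relative to its gene (limma over 158713 probe sets, adjusted p = 0.0245). Its own signal overlapped between the groups, and the gene around it had risen. Limma's diffSplice called 3 probe sets after Cugbp1 siRNA and 6 after Mbnl1 siRNA among the same 55. The share of all probe sets that diffSplice called is not given here, and the shares above belong to the other test. No departure of the members from other genes is therefore read from these counts. Sirt1 4347990, with the limit given above, and Nmnat3 5524907 were called in both. Ppargc1b 4402444 was called after Cugbp1 siRNA, and Nampt 5356107, Nmnat1 5102653 and 5549140 and Sirt1 5404804 after Mbnl1 siRNA. Probe set 5524907 of Nmnat3 read 7.55, 7.50 and 7.66 after Cugbp1 siRNA, 7.22, 7.84 and 7.13 after Mbnl1 siRNA, and 7.32, 7.26 and 6.92 on controls. Its mean was higher with both siRNAs, against the direction of its gene, and its Mbnl1 siRNA arrays overlapped the controls (diffSplice in limma, adjusted p = 0.0491 after Cugbp1 siRNA and 0.0300 after Mbnl1 siRNA). The planned test relative to its gene called it with neither siRNA (limma over 158713 probe sets, adjusted p = 0.114 and 0.0855).

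Ppargc1a was the other gene chosen for its high signal. It read 7.94, 8.23 and 8.24 after Cugbp1 siRNA, 7.78, 7.75 and 7.70 after Mbnl1 siRNA, and 7.28, 7.09 and 7.05 on controls. The 3 groups did not overlap and had the same order as for Nmnat2. PGC-1α is induced in muscle by contraction, fasting and cold and drives the making of mitochondria. The group means were 8.13 ± 0.17, 7.74 ± 0.04 and 7.14 ± 0.12 after Cugbp1 siRNA, after Mbnl1 siRNA and on controls (SD, n = 3 each). The difference from control was 1.00 after Cugbp1 siRNA (rank 8 of 12646) and 0.61 after Mbnl1 siRNA (1.52-fold, rank 148), and between the siRNAs it was 0.39 (1.31-fold), higher after Cugbp1 siRNA.

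The probe sets of Ppargc1a were dim in control cells, and those values are the limit on its size. Of 17 probe sets, 9 passed the filter, and 11 of 17 had a control mean under it, 3 of those among the 9. With only the 6 kept probe sets whose control mean reached the filter the difference was 0.82 and 0.55 after Cugbp1 and Mbnl1 siRNA, and with all 17 it was 0.85 and 0.50. All 17 were higher after Cugbp1 siRNA, by 0.28 to 1.47, and 16 were higher after Mbnl1 siRNA. The 6 with a bright control included 4486508, with 8.74, 8.85 and 8.87 after Cugbp1 siRNA, 8.69, 8.55 and 8.50 after Mbnl1 siRNA, and 7.93, 8.39 and 7.79 on controls. Its siRNA arrays were all above its controls. The exception after Mbnl1 siRNA was 5509536, which spread from 2.79 to 6.10 over the 9 arrays in every group alike and was left out by the filter.

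**Figure D1:**
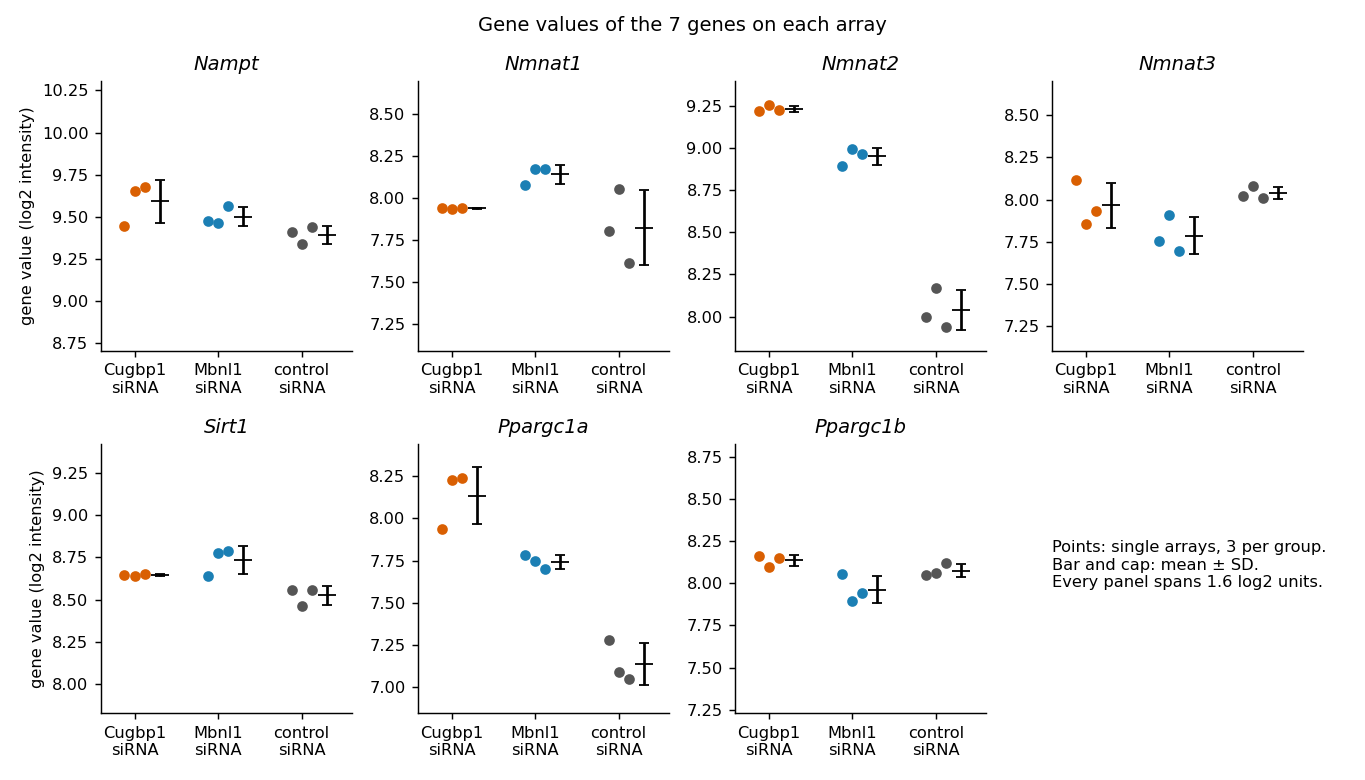
Gene values (log2 intensity, vertical axis) of the 7 genes on each of the 9 arrays, with Cugbp1 siRNA, Mbnl1 siRNA and control siRNA from left to right, points for arrays and bars for the mean ± SD of 3 arrays. Nmnat2 and Ppargc1a show 3 separate groups, with control means of 8.04 and 7.14, while the other 5 genes differ by 0.32 or less from control.

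**Figure D2:**
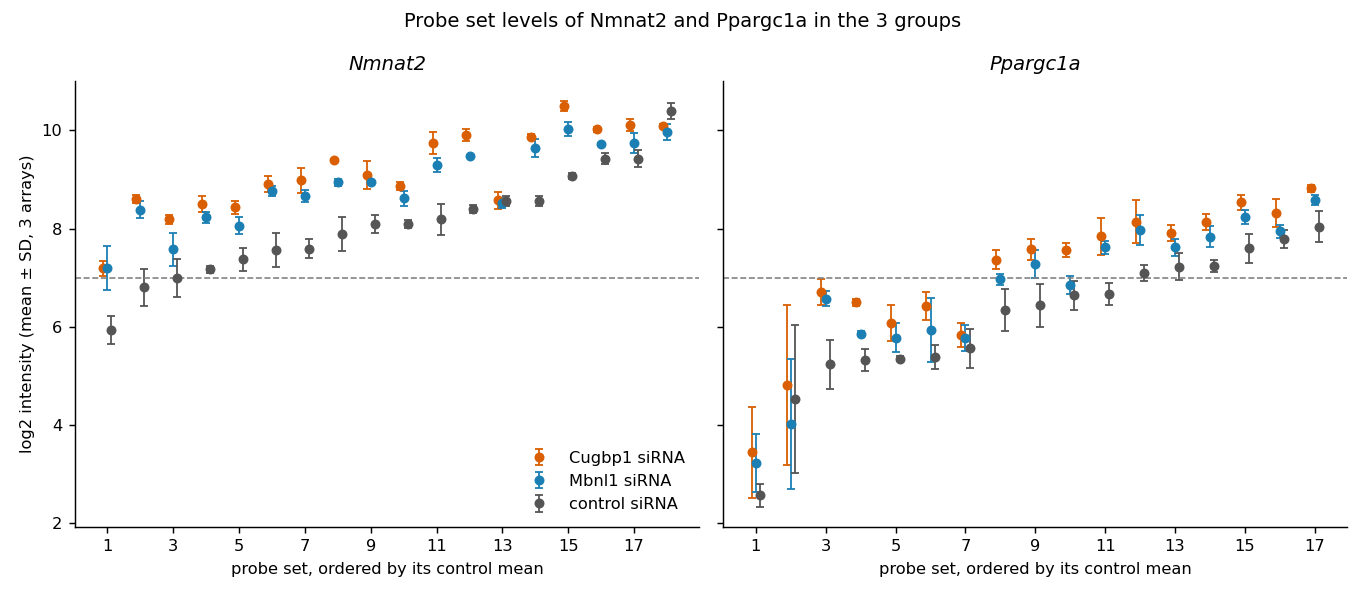
Mean ± SD over 3 arrays (log2 intensity, vertical axis) of each probe set of Nmnat2 (left, 18 probe sets) and Ppargc1a (right, 17 probe sets), ordered by control mean, with the filter at 7.0 as a dashed line. In Nmnat2 the siRNA groups lie above control except at 5049420, where the 3 means lie between 8.53 and 8.57, and at the brightest probe set, where the control mean is the highest. In Ppargc1a 11 of 17 control means lie under the line.

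Ppargc1b, which codes for the second coactivator, passed the test with neither siRNA. It read 8.16, 8.10 and 8.15 after Cugbp1 siRNA, 8.05, 7.90 and 7.94 after Mbnl1 siRNA, and 8.05, 8.06 and 8.12 on controls. Both siRNA groups overlapped the controls, and the Cugbp1 siRNA arrays were all above the Mbnl1 siRNA arrays. The difference from control was 0.06 (SE 0.05, 95% interval -0.05 to 0.17; limma, adjusted p = 0.359) after Cugbp1 siRNA. After Mbnl1 siRNA it was -0.11 (-0.22 to -0.0012; limma, adjusted p = 0.0950). Of 26 probe sets, 15 were higher and 11 lower after Cugbp1 siRNA, with 11 higher and 15 lower after Mbnl1 siRNA. Of the 19 kept, 1 passed alone, 4402444, with 7.86, 7.87 and 8.13 after Cugbp1 siRNA against 7.31, 7.42 and 7.47 on controls (limma over 298889 probe sets, adjusted p = 0.0390). Of all probe sets 16% passed after Cugbp1 siRNA.

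Set against each other, the siRNAs did not part for any of the 5 tested genes, while 9.34% of all genes passed in that comparison. The arrays of 2 of the 5, Nmnat1 and Ppargc1b, did not overlap between the siRNAs, against 29.5% of all genes. No single probe set of the 5 genes passed (0.924% of all probe sets), nor did one relative to its gene (0.0277%). Ppargc1b came nearest, 0.17 higher after Cugbp1 siRNA than after Mbnl1 siRNA (SE 0.05, 95% interval 0.06 to 0.28; limma, adjusted p = 0.0591), with 21 of its 26 probe sets higher. It passed without Mbnl1 siRNA replicate 1 (0.25), control replicate 2 (0.20) or control replicate 3 (0.20), and when the arrays were rescaled. Nmnat3 differed by 0.18 (0.02 to 0.34) and Nampt by 0.09 (-0.05 to 0.23), and Nmnat1 by -0.20 (-0.40 to -0.0015) and Sirt1 by -0.09 (-0.20 to 0.02), with adjusted p between 0.165 and 0.430 in limma. The intervals of Nmnat1 and Nmnat3 lie to one side of 0, so a difference between the siRNAs is not shown to be absent.

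**Figure D3:**
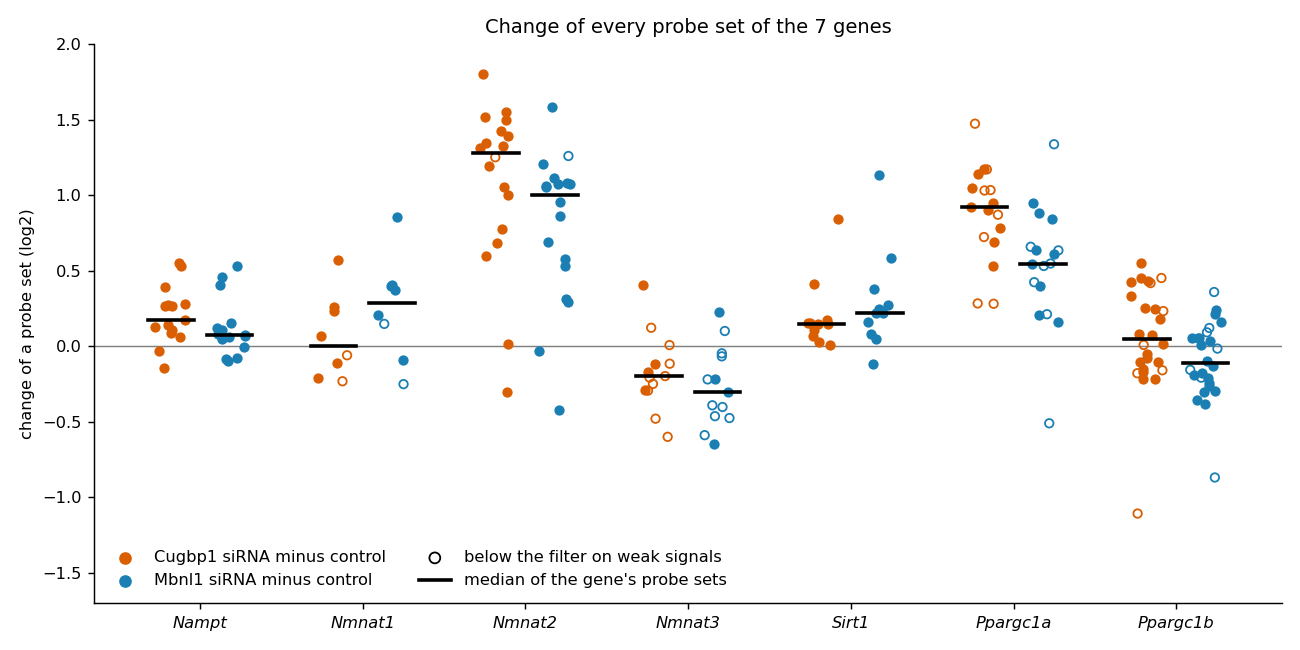
Difference of each probe set from control (log2, vertical axis) after Cugbp1 siRNA and after Mbnl1 siRNA for the 7 genes, with open circles for probe sets under the filter on weak signals and lines for the median of all probe sets of the gene. Medians are 1.28 and 1.00 for Nmnat2 and 0.92 and 0.55 for Ppargc1a, and the probe sets of Nmnat3 lie mostly below 0.

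The region before the start of transcription was read for 6 of the 7 genes from RefSeq (assembly GRCm38.p6), 250 bases before each start. It is shown because cyclic AMP acting through CREB is a known inducer of Ppargc1a, and CREB binds TGACGTCA or its shorter form TGACG. Searched on both strands were TGACG, the longer TGACGTCA (which contains it), the E-box CACGTG and the GC-box GGGCGG. Of the 32851 windows of this length 17.8% hold TGACG, 1.55% hold TGACGTCA, 6.02% hold CACGTG and 32.7% hold GGGCGG. The motif TGACG was found in the windows of Nmnat2 (at 245 and 133 bases before the start), Nampt (135), Sirt1 (39) and Ppargc1a (49, as CGTCA on the shown strand), and in neither that of Nmnat1 nor that of Nmnat3. TGACGTCA was in none of the 6. Windows with 2 or more matches of TGACG, as in Nmnat2, make 3.9% of all. Sirt1 also has CACGTG at 115 and 43 bases, the nearer one overlapping its TGACG. The motif GGGCGG was found in the windows of Nampt, Nmnat1, Nmnat3 and Sirt1 and not in those of Nmnat2 and Ppargc1a. The matches are a description of letters, and the arrays hold no measure of binding. The capitals below mark TGACG or its complement, on 30 bases around each match and on the whole window of Ppargc1a, 5′ to 3′ on the strand of the gene. The start given for Ppargc1a lies 548128 bases inside the annotated gene and is therefore 1 of several starts, and that of Nmnat2 lies 320 bases inside. Windows before other starts of Ppargc1a were not read, so its motifs found or missing here hold for this start alone.
Nmnat2, chr1:152954851-152954880, plus strand: accagTGACGcaaaagaagctagagaggaa
Nmnat2, chr1:152954956-152954985, plus strand: ggaggcggggagTGACGcggtttgcgtcta
Nampt, chr12:32820188-32820217, plus strand: cacgcgctggggTGACGgtcggctttaggc
Sirt1, chr10:63339057-63339086, minus strand: gggcgggtcacgTGACGgggtttaaatctc
Ppargc1a, chr5:51567726-51567975, minus strand: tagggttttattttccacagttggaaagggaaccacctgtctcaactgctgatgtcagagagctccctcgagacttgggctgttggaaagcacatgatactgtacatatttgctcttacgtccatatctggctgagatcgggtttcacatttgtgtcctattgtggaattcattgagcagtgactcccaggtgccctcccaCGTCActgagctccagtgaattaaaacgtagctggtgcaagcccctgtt

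The rest of the NAD synthesis genes moved both ways. Besides Nmnat2, 14 genes of NAD synthesis and salvage were tested, of 24 on the array. After Cugbp1 siRNA 2 rose and 3 fell, with a median of 0.02, and after Mbnl1 siRNA 4 rose and 5 fell, with a median of -0.03. Among all genes 26% rose and 12.7% fell after Cugbp1 siRNA, and 26.9% rose and 14.6% fell after Mbnl1 siRNA. Nt5c3, a nucleotidase that acts on pyrimidine nucleotides, rose by 0.34 after Cugbp1 siRNA and by 0.45 after Mbnl1 siRNA (limma, adjusted p = 0.00782 and 0.00161). Nt5e, the surface nucleotidase CD73, rose by 0.32 after Mbnl1 siRNA, and Pnp, the purine nucleoside phosphorylase, by 0.15. Lower were Naprt, the entry of nicotinic acid, at -0.25 and -0.29 after Cugbp1 and Mbnl1 siRNA, Haao of the kynurenine route at -0.25 and -0.22, and the transporter gene Slc12a8 at -0.18 and -0.15. Afmid of the kynurenine route changed by -0.20 after Mbnl1 siRNA. Naprt, Haao and Slc12a8 each rest on 4 kept probe sets. Pnp and Afmid were added to the genes named after their values were seen, as the remaining ones that passed.

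Of 26 tested genes whose products use or bind NAD or act on ADP-ribose, 9 rose and 0 fell after Cugbp1 siRNA (median 0.12). After Mbnl1 siRNA 7 rose and 2 fell (median 0.06). Over all genes 26% rose and 12.7% fell after Cugbp1 siRNA and 26.9% rose and 14.6% fell after Mbnl1 siRNA, so the count after Mbnl1 siRNA is near the background. Parp8, a member of the PARP family, rose by 0.32 and 0.23 after Cugbp1 and Mbnl1 siRNA, and the tankyrase gene Tnks2 by 0.18 and 0.29. Tnks rose by 0.23 after Cugbp1 siRNA and Parp12 by 0.34 after Mbnl1 siRNA. Ctbp2, an NAD-sensing corepressor gene, rose by 0.45 after Cugbp1 siRNA, on 3 probe sets, with 7.66, 7.85 and 7.79 after Cugbp1 siRNA and 7.74, 7.29 and 6.93 on controls. Parp16 and Adprh fell after Mbnl1 siRNA, by 0.20 and 0.11, and Adprh rose by 0.11 after Cugbp1 siRNA. These directions depend on the scaling, as do those of all genes. With arrays centred on the probe sets that passed the filter, 1 rose and 3 fell after Cugbp1 siRNA. After Mbnl1 siRNA 3 rose and 6 fell. Of all 12646 genes, 1366 rose and 3206 fell with that centring after Cugbp1 siRNA, and 1716 rose and 3918 fell after Mbnl1 siRNA.

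Of 41 tested targets of the PGC-1 coactivators, 19 rose and 1 fell after Cugbp1 siRNA (median 0.11), where 26% of all genes rose and 12.7% fell (median 0.05). After Mbnl1 siRNA 12 rose and 6 fell (median 0.06), where 26.9% of all genes rose and 14.6% fell (median 0.04). Cycs, the gene of cytochrome c, rose by 0.42 after Cugbp1 siRNA, on 3 probe sets. The fatty acid transporter gene Cd36 rose by 0.39 and 0.51 after Cugbp1 and Mbnl1 siRNA, also on 3 probe sets, and Acadl of fatty acid oxidation by 0.33 and 0.24, on 11. Fabp3 rose by 0.28 and 0.48, and Tfb1m, a mitochondrial rRNA methyltransferase, by 0.26 and 0.45. Slc2a4, the insulin-responsive glucose transporter gene, fell by 0.24 and 0.25 after Cugbp1 and Mbnl1 siRNA. Tst (-0.40) and Fndc5 (-0.29) were lower after Mbnl1 siRNA, on 3 probe sets each. With the arrays centred on the probe sets that passed the filter, 7 rose and 7 fell after Cugbp1 siRNA. After Mbnl1 siRNA 6 rose and 13 fell. Of all 12646 genes, 1366 rose and 3206 fell with that centring after Cugbp1 siRNA, and 1716 rose and 3918 fell after Mbnl1 siRNA.

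Among partners and regulators of PGC-1, 43 were tested besides Ppargc1a. After Cugbp1 siRNA 11 rose and 2 fell (median 0.08), and after Mbnl1 siRNA 15 rose and 2 fell (median 0.07). Of all genes 26% rose after Cugbp1 siRNA and 26.9% after Mbnl1 siRNA, and 12.7% and 14.6% fell, so the share of partners that rose after Cugbp1 siRNA is that of genes in general. Ppp3ca, a calcineurin catalytic subunit, rose by 0.36 and 0.42 after Cugbp1 and Mbnl1 siRNA, Med1 of the Mediator complex by 0.34 and 0.30, and the ubiquitin ligase gene Fbxw7 by 0.29 and 0.40. The kinase gene Camk4 and the nuclear receptor gene Ppara fell with both siRNAs, by 0.26 and 0.39 and by 0.22 and 0.26, on 4 and 3 probe sets. With the same centring the counts were 6 higher and 4 lower after Cugbp1 siRNA, with Ppargc1a counted. After Mbnl1 siRNA they were 8 higher and 11 lower. Of all 12646 genes, 1366 rose and 3206 fell with that centring after Cugbp1 siRNA, and 1716 rose and 3918 fell after Mbnl1 siRNA. In the SIRT1 list of 13 tested genes, 3 rose and 1 fell after Cugbp1 siRNA (median 0.11) and 4 rose and 1 fell after Mbnl1 siRNA (median 0.07), beside the same shares of all genes. With the centring, 0 rose and 2 fell after Cugbp1 siRNA and 2 rose and 3 fell after Mbnl1 siRNA. The centred counts of all genes just given apply here too. Foxo1, a transcription factor deacetylated by SIRT1, rose by 0.25 and 0.35 and Cyb5r4 by 0.20 and 0.33 after Cugbp1 and Mbnl1 siRNA. Dyrk1a rose by 0.16 and E2f1 fell by 0.27 after Cugbp1 siRNA, and Foxo3 rose by 0.22 and Foxo4 fell by 0.25 after Mbnl1 siRNA.

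Since Nmnat2 is best known from neurons, genes of axons and neurons were set beside it. Of 17 tested, 6 rose and 2 fell after Cugbp1 siRNA (median 0.01), and 8 rose and 3 fell after Mbnl1 siRNA (median 0.13), where of all genes 26% and 26.9% rose and 12.7% and 14.6% fell after Cugbp1 and Mbnl1 siRNA. With the centring the counts were 2 higher and 5 lower after Cugbp1 siRNA and 5 higher and 5 lower after Mbnl1 siRNA. Of all 12646 genes, 1366 rose and 3206 fell with that centring after Cugbp1 siRNA, and 1716 rose and 3918 fell after Mbnl1 siRNA. Mycbp2, a ubiquitin ligase gene whose product (PHR1) targets NMNAT2 for breakdown, rose by 0.27 and 0.47 after Cugbp1 and Mbnl1 siRNA, and Map3k12, the axon injury kinase DLK, by 0.28 and 0.43. Fbxo45, its partner in that ligase, rose by 0.15 and 0.13 and was named after its values were seen. Nefm rose by 0.29 and 0.31, Eno2 by 0.32 after Cugbp1 siRNA, and Map2 by 0.16 and 0.40. Mapt fell by 0.46 and 0.35 and Syt1 by 0.33 and 0.33, each on 4 probe sets, and Nefh fell by 0.25 after Mbnl1 siRNA. The neuronal and glial markers summed to intensities of 5824 to 6333 after Cugbp1 siRNA, 6357 to 6815 after Mbnl1 siRNA and 5855 to 6015 on controls, and 6 of those 11 genes were below the filter on all arrays. Of the 8 genes of that marker list tested on their kept probe sets, 1 rose and 1 fell after Cugbp1 siRNA. After Mbnl1 siRNA 3 rose and 2 fell. The part of these markers in the values of Nmnat2 was not tested. Adipocyte markers, of which 9 of 11 were below the filter on all arrays, summed to 629 to 659 after Cugbp1 siRNA, 605 to 627 after Mbnl1 siRNA and 653 to 672 on controls. Of 5 tested on their kept probe sets, 1 rose and 1 fell after Cugbp1 siRNA and 1 rose and 2 fell after Mbnl1 siRNA. The one that rose was Lpl, lipoprotein lipase, which muscle also expresses, by 0.48 after Cugbp1 siRNA and 0.33 after Mbnl1 siRNA (limma, adjusted p = 0.00012 and 0.000405), named after its values were seen. Its gene value, on 14 kept of 24 probe sets, was 8.54, 8.56 and 8.46 after Cugbp1 siRNA, 8.33, 8.40 and 8.39 after Mbnl1 siRNA, and 8.02, 8.06 and 8.05 on controls. The groups of Lpl did not overlap and had the same order as those of Ppargc1a. Against control 48.8% of all genes did not overlap after Cugbp1 siRNA and 57.5% after Mbnl1 siRNA. The other tested adipocyte markers went the other way. Plin1, Cidec, Prdm16 and Pck1 changed by -0.22, -0.23, -0.27 and -0.14 after Cugbp1 siRNA. After Mbnl1 siRNA they changed by -0.22, -0.13, -0.33 and -0.16. The list medians were -0.22 and -0.16. The part of these markers in the values of Ppargc1a was not tested.

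**Figure D4:**
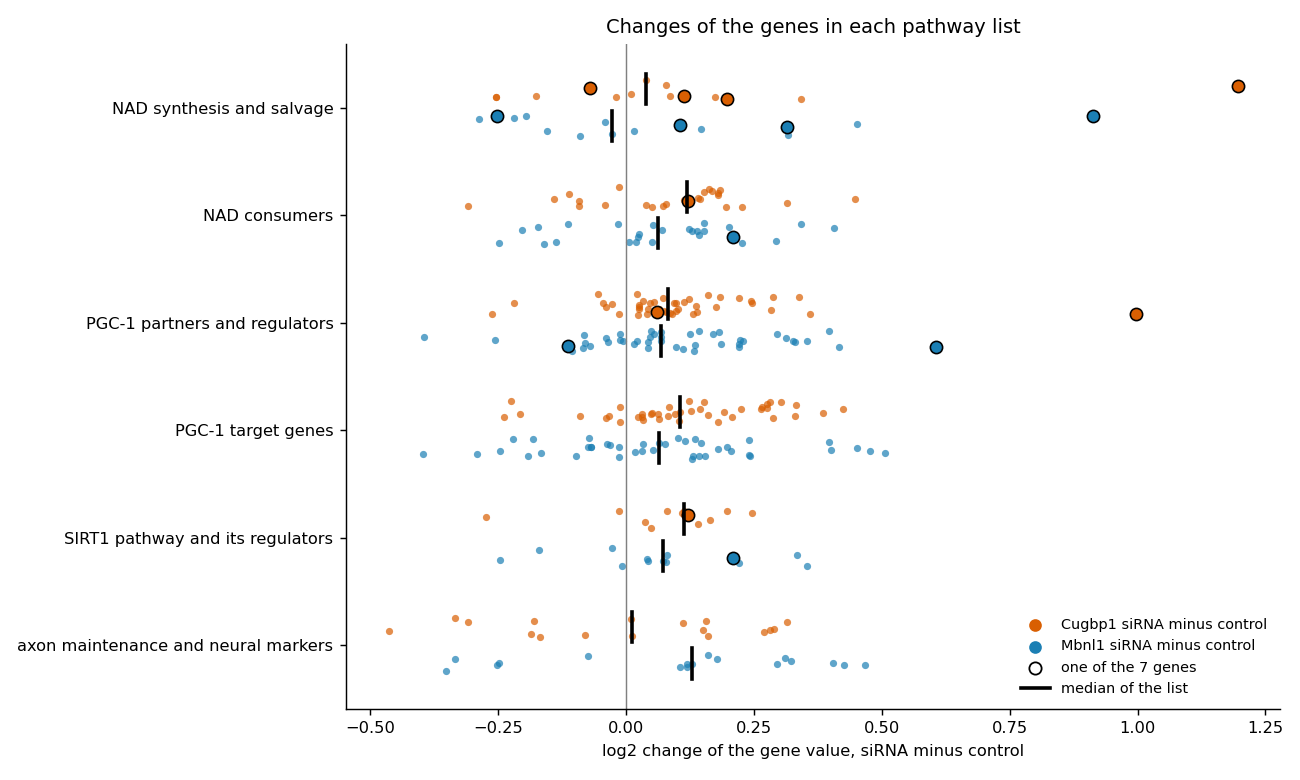
Difference of the gene value from control (log2, horizontal axis) for the tested genes of 6 pathway lists, after Cugbp1 siRNA (upper band) and Mbnl1 siRNA (lower band of each list), with outlined points for the 7 genes and lines for list medians. Nmnat2 at 1.2 and 0.91 and Ppargc1a at 1.00 and 0.61 lie beyond all other points, and every other listed gene lies within 0.51 of 0.

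The genes whose value followed Nmnat2 most closely over the 9 arrays were Bcl9 (Pearson r = 0.996), Mtpap (0.995) and Wdr33 (0.992). Bcl9 read 8.43, 8.45 and 8.46 after Cugbp1 siRNA, 8.36, 8.34 and 8.38 after Mbnl1 siRNA, and 8.03, 8.08 and 8.01 on controls. Those of Ppargc1a were Pcca (0.987), Kitl (0.986) and Tia1 (0.986). Tia1 read 8.91, 9.0 and 9.0 after Cugbp1 siRNA, 8.77, 8.76 and 8.79 after Mbnl1 siRNA, and 8.45, 8.29 and 8.38 on controls. Each of these 6 genes had the order Cugbp1 siRNA, Mbnl1 siRNA, control in its group means, with smaller differences than its partner, and the correlations were the highest among 12645 genes over arrays of only 3 groups.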

How the data were processed

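The authors deposited 1 linear intensity per probe set and array, for 1195555 probe sets and 9 exon arrays. RMA in Affymetrix Expression Console with build mm9 made these values, per the submitters' processing notes, which give no versions here. Labelling started from total RNA, per the labels' protocols. Values were log2-transformed here, with no other scaling. Symbols came from the platform annotation, updated through RefSeq (GRCm38.p6). A single symbol was listed for 316997 probe sets, several for 6571, which were not used, and none here for 871987. Probe sets were kept at a 9-array mean at or above the 75th percentile, and genes with at least 3 kept (12646) were summarised by Tukey median polish. Groups came from the sample titles.

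R 4.3.3 with limma 3.58.1 and data.table (version 1.17.8) fitted group means over all 9 arrays (lmFit, eBayes), adjusted with Benjamini-Hochberg. Single probe sets, and probe sets relative to their gene (exon usage, genes with at least 4 kept), used limma with a mean-variance trend. The tests were also run on simulated arrays with known changes. Noise there was drawn separately for each probe set, with no offset between arrays. The simulation therefore does not vouch for the calls made here. Named were the 7 members, both siRNA targets, from each list up to 3 called genes per direction and comparison with control with the largest change, and the 3 genes most correlated with Nmnat2 and with Ppargc1a. The members, lists and alternatives were chosen with earlier results of these data known. No 2 replicates held the same values: 0.0516% to 0.0726% of values were identical within a pair. Same-numbered arrays deviated together with r from -0.10 to 0.12, so the numbers were not used as pairs. The alternatives were other filters, scalings, summaries, variance models, a replicate block and leaving out each array.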

Additional observations from a re-analysis of the deposited data

How the results depend on the processing

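Over 19 alternatives, 353 values of the 7 genes kept their direction and their side of the threshold or, for Nmnat2 and Ppargc1a, moved by less than 1 SD, while 23 lost a call, 14 gained one, 6 moved further and 3 changed sign. Both scalings over the kept probe sets with 1 symbol were chosen after seeing the data. Causes of the shifts were not tested unless named. After Cugbp1 siRNA Nampt lost its call with no filter (0.20), the filter at the median (0.20), at least 1 kept probe set (0.20), repeated quantile normalisation (0.15) and the 2 scalings over kept probe sets, quantile (0.11) and centring (0.077). Nmnat1 turned to -0.0013 with that quantile and -0.0078 with that centring, and Ppargc1b to -0.016 with the centring. Sirt1 gained a call with arrays centred over all probe sets (0.16) and with the mean of probe sets (0.20). Nmnat2 moved to 1.07 with the mean and Ppargc1a to 0.80 with the quantile over kept probe sets. After Mbnl1 siRNA Nmnat3 lost its call with no filter (-0.26) and the filter at the median (-0.22), Nmnat1 with the quantile (0.19) and centring (0.20) over kept probe sets, and Sirt1 with that centring (0.094). Ppargc1b fell with repeated quantile normalisation (-0.14) and with the quantile (-0.18) and centring (-0.23) over kept probe sets. Nmnat2 moved to 0.76 with the mean of probe sets, and Ppargc1a to 0.39 and 0.46 with the quantile and centring over kept probe sets. Between the siRNAs Ppargc1b gained a call with repeated quantile normalisation (0.19), centring over all probe sets (0.19), the mean (0.20) and the quantile (0.21) and centring (0.21) over kept probe sets. Genes called there were 1181, against 639 with no filter and 739 with at least 1 kept probe set, where more genes were tested. Exon usage calls among the tested members were 3 after Cugbp1 siRNA and 6 after Mbnl1 siRNA with diffSplice, against 0 and 2. The share of all probe sets called by diffSplice is not given here.

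Higher and lower calls were 3293 and 1600 after Cugbp1 siRNA and 3397 and 1848 after Mbnl1 siRNA, against 1366 and 3206 and 1716 and 3918 with centring over kept probe sets, 1650 and 2731 and 2004 and 3395 with the quantile over them, 2600 and 1831 and 2795 and 2282 with repeated quantile normalisation, and 4398 and 1230 and 4232 and 1433 with centring over all probe sets.

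Leaving out 1 array at a time gave, after Cugbp1 siRNA, 0.14 to 0.26 for Nampt and 0.019 to 0.25 for Nmnat1, and -0.14 to -0.011 for Nmnat3 and 0.049 to 0.11 for Ppargc1b, neither of which was ever called. After Mbnl1 siRNA it gave 0.20 to 0.45 for Nmnat1 and -0.31 to -0.21 for Nmnat3, and 0.067 to 0.13 for Nampt, which was never called. Between the siRNAs it gave 0.23 to 0.33 for Nmnat2, 0.16 to 0.25 for Ppargc1b, and for the uncalled Nampt 0.049 to 0.15, Nmnat3 0.11 to 0.24 and Sirt1 -0.14 to -0.072, with 632 to 1155 genes called. Replicate numbers shared by the groups carried no shared deviation. A fit with the replicate number as a block called 4539, 4982 and 875 genes after Cugbp1 siRNA, after Mbnl1 siRNA and between them, and changed the call of no tested member. Signals under the filter, where most of Nmnat3 and Ppargc1a in controls lie, limit the size of a change.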
